A study of Homo sapiens with 12 samples.

Results

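The expression of 9 Hedgehog pathway genes was examined across the 4 groups of an RNA-seq experiment in MiaPaca2 cells, to ask whether the higher SHH level under calcipotriol (CPT) was accompanied by higher levels of the pathway's target genes. The members are the ligand SHH, the ligand exporter DISP1, the receptors PTCH1 and HHIP, the signal transducer SMO, the cytosolic inhibitor SUFU and the transcription factors GLI1, GLI2 and GLI3, 9 of the 63677 Ensembl identifiers in the count tables. The set was chosen by the rise of SHH in CPT against Con, so the values of that comparison are given as a description with no test. MiaPaca2 is an established human pancreatic cancer line that resists Vitamin D. The unprimed cells received the vehicle DMSO (Con) or 1 µM CPT, a Vitamin D analogue, for 24 h. The epigenetically primed cells received 2 mM GTA (glyceryl triacetate, a source of acetate for histone acetylation) and 1 µM 5-Aza (5-Aza-2′-deoxycytidine, an inhibitor of DNA methylation), without CPT (GTA+5-Aza) or with 1 µM CPT (CPT+GTA+5-Aza), also for 24 h. Each group has 3 libraries of 1 cell line. The methods call the samples of an experiment independent without saying how the RNA-seq libraries were separated (cultures, passages or days), and p-values measure the spread between these libraries, which may be technical.

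In the Hedgehog pathway, the secreted ligand binds PTCH1, which otherwise keeps SMO inactive. Active SMO, which works at the primary cilium, releases the GLI factors from SUFU, and they then switch on target genes that include PTCH1, HHIP and GLI1 themselves. Higher GLI1 and PTCH1 transcripts are therefore the usual readout of an active pathway in a cell. In pancreatic cancer, tumour cells are known to make SHH that acts largely on neighbouring stromal fibroblasts, which are not part of this monoculture.

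Promoter sequences of SHH and SMO are shown because one of these genes was higher with CPT and the other with priming, and a PTCH1 window is shown because it holds the binding sequence of the GLI factors. The sequences are RefSeq windows of 250 bases before an annotated start on GRCh38.p14, written 5′ to 3′ on the gene's strand. Capitals mark the CpG dinucleotides, the sites of DNA methylation, in SHH (chr7:155812464-155812713, minus strand) and in SMO (chr7:129188383-129188632, plus strand), and the GLI sequence in PTCH1 (chr9:95509267-95509516, minus strand).
SHH: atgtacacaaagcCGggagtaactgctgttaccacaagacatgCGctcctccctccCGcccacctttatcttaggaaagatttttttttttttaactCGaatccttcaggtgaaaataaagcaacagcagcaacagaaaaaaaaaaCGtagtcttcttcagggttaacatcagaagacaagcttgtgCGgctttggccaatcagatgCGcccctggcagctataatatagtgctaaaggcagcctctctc
SMO: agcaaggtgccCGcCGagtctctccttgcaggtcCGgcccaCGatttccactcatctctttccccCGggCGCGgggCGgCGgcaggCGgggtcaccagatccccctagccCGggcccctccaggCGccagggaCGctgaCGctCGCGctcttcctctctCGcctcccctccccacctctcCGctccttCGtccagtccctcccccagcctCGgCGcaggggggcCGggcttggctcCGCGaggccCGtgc
PTCH1: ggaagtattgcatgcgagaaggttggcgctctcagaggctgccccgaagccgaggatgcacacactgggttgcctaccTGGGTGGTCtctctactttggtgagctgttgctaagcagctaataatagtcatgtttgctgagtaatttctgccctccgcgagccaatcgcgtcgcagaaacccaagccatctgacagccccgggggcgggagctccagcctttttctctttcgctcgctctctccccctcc
The SHH window holds 7 CpG and is 44.4% G and C, whereas the SMO window holds 25 CpG and is 73.6% G and C. Over all 35116 windows the median was 11 CpG, with quartiles at 3 and 23. The SHH window was thus below the median and the SMO window above the upper quartile. The GLI sequence GACCACCCA, searched on both strands, was found in 0.199% of all windows and in 1 of the 15 windows of the 7 members with an entry (SHH, DISP1, PTCH1, HHIP, SMO, SUFU and GLI2). It lies in this PTCH1 window, with its first base at -172 from one of the alternative starts of the gene. GGGCGG, the GC box, was found in 42.6% of all windows and in 10 of the 15 members' windows. The DR3 vitamin D response element was found in 0.0655% of all windows and in 0 of the members' windows. A match is a description of the letters and not a binding site, and these windows hold neither distal enhancers nor a methylation measurement.

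The libraries held 16162490 to 21224665 counts. Low counts were filtered by edgeR's filterByExpr, which left 17123 genes to test, 7 of them members. GLI1 and HHIP did not pass and are described by their counts. Levels are CPM, the counts relative to the TMM-scaled library total. Comparisons are log2 fold changes from 1 quasi-likelihood fit of edgeR to all 12 libraries, and every adjusted p is that of its F test after Benjamini-Hochberg adjustment over the tested genes. Symbols and coordinates are those of GENCODE v44 on GRCh38. The cell line's epithelial keratins KRT8, KRT18 and KRT19 were present, with a 5-gene epithelial list summing to 2082 to 2625 CPM over the 12 libraries, but EPCAM, a defining epithelial marker, was at or near 0. The fibroblast and stellate list of 8 genes summed to 780.1 to 1070 CPM, nearly all of it COL1A2 and COL3A1. Without its 3 collagen genes that list summed to at most 1.48 CPM, and LUM and FAP were at 0 in every library.

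**Figure D1:**
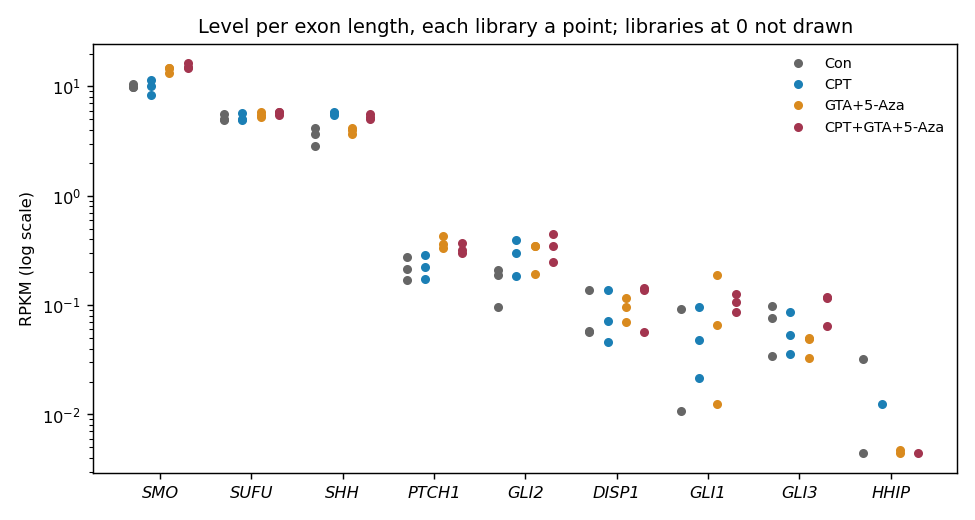
Levels per exon length of the 9 genes in RPKM (log axis), with 1 point per library coloured by group and libraries at 0 not drawn. SMO, SUFU and SHH lie between 2.84 and 16.2 RPKM in all 12 libraries, and the other 6 genes lie below 0.45 RPKM.

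Per exon length, the members fell into a high and a low set. SMO was highest, with 8.42 to 16.2 RPKM over the 12 libraries (median 12.4). SUFU followed with 4.90 to 5.87 RPKM (median 5.45) and SHH with 2.84 to 5.83 RPKM (median 4.60), and these neighbours overlapped. The ligand and the inhibitor of the pathway were thus measured at overlapping levels per length. PTCH1 had 0.168 to 0.429 RPKM (median 0.296) and GLI2 had 0.0954 to 0.449 RPKM (median 0.273), again overlapping each other. DISP1 had a median of 0.0835, GLI1 of 0.0765 and GLI3 of 0.0593 RPKM, and the ranges of these 3 overlapped. HHIP was lowest, with a median of 0.0022 RPKM and 6 of 12 libraries at 0. All 3 GLI factors thus lay among the low genes, as did the feedback receptors PTCH1 and HHIP.

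**Figure D2:**
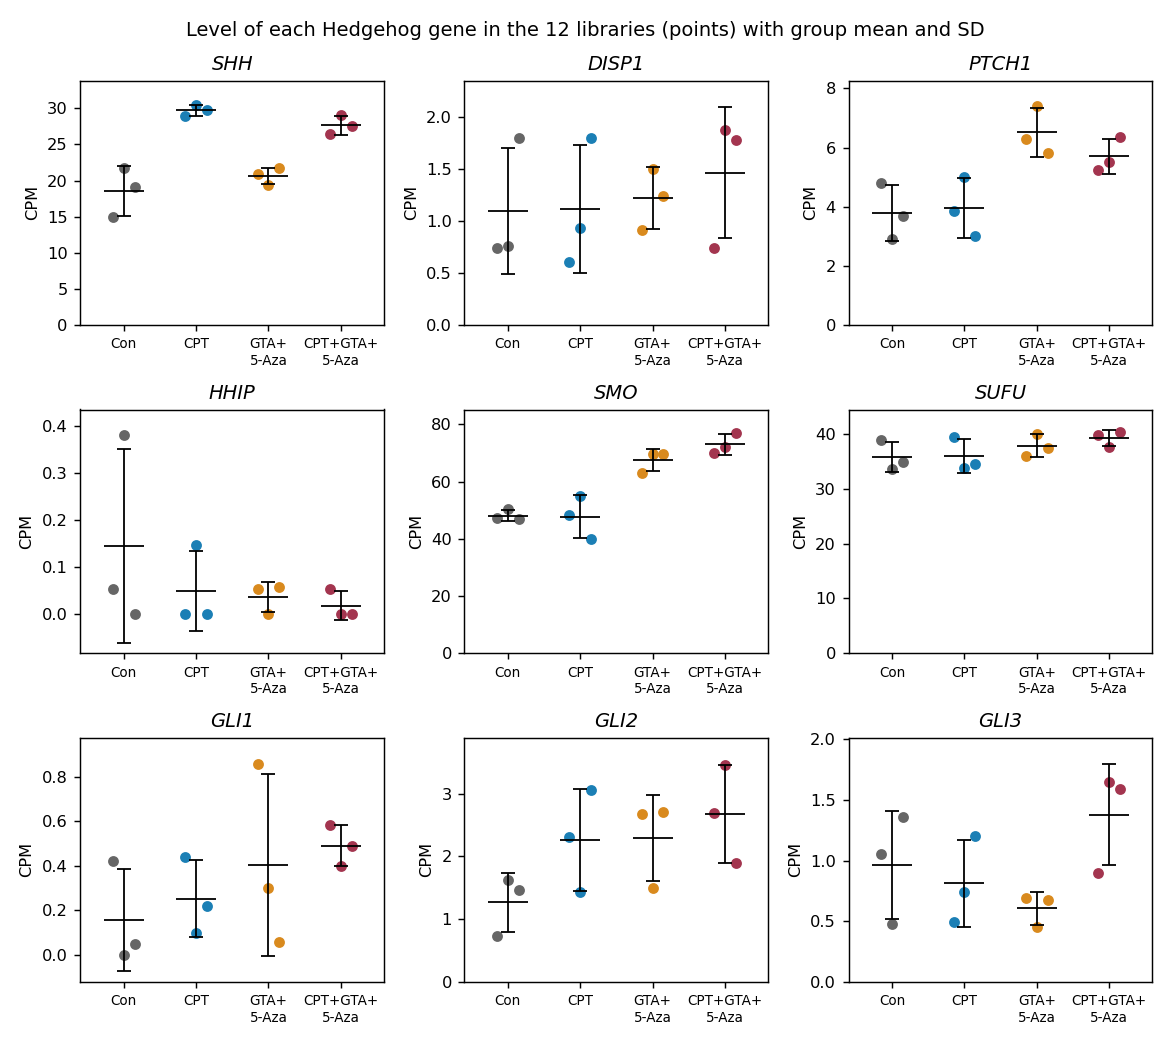
Levels of the 9 genes in CPM, each on its own axis, with 1 point per library and the group mean with its SD (n = 3). SHH sits at 26.4 to 30.5 CPM in the 6 libraries with CPT and at 14.9 to 21.7 CPM in the 6 without, whereas SMO sits at 62.9 to 77.0 CPM in the 6 primed libraries and at 40.0 to 54.9 CPM in the 6 unprimed ones. The set was chosen by SHH in the unprimed libraries, so its difference there is a description only.

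SHH (ENSG00000164690, chromosome 7 from 155799980 to 155812463, minus strand), the secreted ligand, was the member whose rise with CPT in unprimed cells chose the set. It had 14.9, 21.7 and 19.2 CPM in the Con libraries and 29.0, 30.5 and 29.8 CPM in the CPT libraries. In primed cells it had 20.8, 19.4 and 21.7 CPM without CPT and 26.4, 29.0 and 27.6 CPM with CPT. In primed cells every library with CPT lay above every library without it. The same held in unprimed cells, where it is a description because that comparison chose the set. The group means were 18.6 ± 3.46 CPM in Con, 29.7 ± 0.760 CPM in CPT, 20.6 ± 1.16 CPM in GTA+5-Aza and 27.7 ± 1.30 CPM in CPT+GTA+5-Aza (SD, n = 3). In this order of levels, Con and GTA+5-Aza overlapped, and so did CPT+GTA+5-Aza and CPT.

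In unprimed cells, the comparison by which the set was selected, the log2 fold change of SHH was 0.68 (SE 0.12, 95% interval 0.43 to 0.92), a 1.60-fold higher level. Without Con replicate 1, the lowest Con library, it was 0.54, and without Con replicate 2 it was 0.80. The primed libraries were not part of that comparison, but the set was chosen with earlier results of these data known. In primed cells the log2 fold change of SHH was 0.42 (SE 0.12, 95% interval 0.18 to 0.67), or 1.34-fold. Its unadjusted P was 0.00164 by the quasi-likelihood test, the 13th smallest of the 17123 genes, but the adjusted p was 1.00, so SHH did not pass the test. It also lay under the fold threshold of 1.5. SHH was not alone in having all libraries on 1 side: every CPT+GTA+5-Aza library lay above every GTA+5-Aza library in 4.42% of the tested genes. The response of SHH in primed minus that in unprimed cells was -0.25 on the log2 scale (SE 0.17, 95% interval -0.60 to 0.10), and this interval, which is given as a description, includes 0. Priming itself left SHH within the spread of the libraries, with a log2 fold change of 0.15 without CPT (95% interval -0.10 to 0.40, adjusted p = 0.466) and of -0.11 with CPT (95% interval -0.35 to 0.14, adjusted p = 0.613).

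No other Hedgehog ligand was measured at a comparable level. IHH, the Indian hedgehog ligand, had 1 to 11 counts per library and DHH, the desert hedgehog ligand, had 0 to 2 counts, and neither passed the filter. DISP1 (ENSG00000154309, chromosome 1 from 222815022 to 223005995, plus strand), the transporter that releases lipid-modified ligand from the cell, had 0.736, 0.762 and 1.80 CPM in Con and 0.605, 0.935 and 1.80 CPM in CPT. It had 0.908, 1.503 and 1.24 CPM in GTA+5-Aza and 0.740, 1.87 and 1.78 CPM in CPT+GTA+5-Aza. All 4 groups overlapped. The log2 fold change of DISP1 with CPT was 0.01 in unprimed cells (95% interval -1.04 to 1.07) and 0.26 in primed cells (95% interval -0.79 to 1.30), intervals that leave changes of about 2-fold undetectable at this depth.

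PTCH1 (ENSG00000185920, chromosome 9 from 95442980 to 95517057, minus strand), both the receptor and a direct GLI target, differed with CPT by less than the spread between libraries. Its levels were 4.79, 2.91 and 3.70 CPM in Con and 3.85, 5.02 and 3.002 CPM in CPT, so that these groups overlapped. The log2 fold change with CPT in unprimed cells was 0.07 (SE 0.24, 95% interval -0.42 to 0.55). In primed cells PTCH1 had 6.31, 7.41 and 5.82 CPM without CPT and 5.23, 5.51 and 6.37 CPM with CPT, which again overlapped. Its log2 fold change there was -0.19 (SE 0.22, 95% interval -0.66 to 0.27, adjusted p = 1.00). In unprimed cells the value moved from -0.14 without CPT replicate 2 to 0.27 without Con replicate 1, where the 95% interval reached 0.80.

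PTCH1 did rise with priming. Every GTA+5-Aza library lay above every Con library, as in 18.1% of all tested genes (in 16.0% every one lay below). The mean of PTCH1 went from 3.80 ± 0.943 to 6.51 ± 0.819 CPM (SD, n = 3). This was a log2 fold change of 0.78 (SE 0.23, 95% interval 0.31 to 1.25), or 1.72-fold, with an adjusted p of 0.0177. PTCH1 was 1 of 2 members that rose in this comparison, in which 9.95% of all tested genes passed the adjusted threshold upward and 7.53% downward. The call was lost without Con replicate 2 (adjusted p = 0.0913), Con replicate 3 (adjusted p = 0.0610) or GTA+5-Aza replicate 2 (adjusted p = 0.0753). With CPT present, PTCH1 went from 3.96 ± 1.01 CPM in CPT to 5.70 ± 0.594 CPM in CPT+GTA+5-Aza. The libraries did not overlap, as in 16.4% of all tested genes upward and 14.4% downward. The log2 fold change was 0.52 (SE 0.23, 95% interval 0.05 to 1.00), but the adjusted p was 0.129. Without CPT replicate 2, the CPT library with the most PTCH1, the log2 fold change was 0.73 with an adjusted p of 0.0371. An unnamed gene on the opposite strand (ENSG00000271155) shares 711 exon bases with PTCH1 and had at most 21 counts in a library. The strand setting of the counting is not given in the sources used here.

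SMO (ENSG00000128602, chromosome 7 from 129188633 to 129213545, plus strand), the seven-pass membrane protein that carries the signal inward, was the member that followed priming most clearly. It had 47.1, 50.5 and 46.8 CPM in Con and 48.4, 54.9 and 40.0 CPM in CPT. In primed cells it had 62.9, 69.7 and 69.5 CPM without CPT and 70.0, 72.0 and 77.0 CPM with CPT. All 6 primed libraries lay above all 6 unprimed ones. Within 1 comparison, 18.1% (without CPT) and 16.4% (with CPT) of all tested genes had every primed library above every unprimed one. In priming without CPT SMO had a log2 fold change of 0.49 (SE 0.09, 95% interval 0.29 to 0.68, adjusted p = 5.53e-04), or 1.40-fold. In priming with CPT it was 0.61 (SE 0.09, 95% interval 0.42 to 0.80, adjusted p = 4.16e-05), or 1.53-fold, and SMO was the 1 member called higher among 9.57% of all tested genes (7.39% were lower). SMO kept both calls with each of the 12 libraries left out in turn, with an adjusted p of at most 0.00588. CPT left SMO at a log2 fold change of -0.01 in unprimed cells (95% interval -0.20 to 0.18). In primed cells the value was 0.12 (95% interval -0.07 to 0.30, adjusted p = 1.00). The CPT+GTA+5-Aza libraries all lay above the GTA+5-Aza ones, as in 4.42% of all tested genes. A gene on the opposite strand (ENSG00000243230) shares 129 exon bases with SMO and had at most 62 counts in a library, against 733 to 1392 for SMO.

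HHIP (ENSG00000164161, chromosome 4 from 144646156 to 144745271, plus strand), the decoy receptor that binds and sequesters the ligand and is itself a GLI target, was close to absent. It had 1, 8 and 0 counts in Con, 0, 3 and 0 in CPT, 1, 0 and 1 in GTA+5-Aza and 1, 0 and 0 in CPT+GTA+5-Aza. The limit that a count of 0 allows, 3 counts, corresponds to 0.158 to 0.184 CPM in the smallest library of each group, and 11 of the 12 libraries had no more than 3 counts. No direction can be read at this depth. Such limits and the count intervals given here cover counting error only.

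SUFU (ENSG00000107882, chromosome 10 from 102503972 to 102633535, plus strand), which holds the GLI factors in the cytosol, was the steadiest member. It had 38.9, 33.7 and 35.0 CPM in Con, 39.4, 33.7 and 34.6 CPM in CPT, 36.0, 40.1 and 37.4 CPM in GTA+5-Aza and 39.9, 37.5 and 40.4 CPM in CPT+GTA+5-Aza. All groups overlapped. With CPT the log2 fold change was 0.00 in unprimed cells (95% interval -0.19 to 0.20) and 0.05 in primed cells (95% interval -0.14 to 0.25, adjusted p = 1.00). With priming it was 0.08 without CPT and 0.13 with CPT (adjusted p = 0.650 and 0.413). None of the 4 intervals reaches 0.33 on the log2 scale.

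GLI1 (ENSG00000111087, chromosome 12 from 57459785 to 57472268, plus strand), the activator whose own transcription is the classical readout of the pathway, was nearly silent. It had 8, 0 and 1 counts in Con and 8, 2 and 4 counts in CPT. In primed cells it had 16, 6 and 1 counts without CPT and 11, 7 and 8 counts with CPT. The groups overlapped in both pairs with and without CPT. The summed counts were 9 in Con (exact Poisson 95% interval 4.12 to 17.1), 14 in CPT (7.65 to 23.5), 23 in GTA+5-Aza (14.6 to 34.5) and 26 in CPT+GTA+5-Aza (17.0 to 38.1). In a fit with low genes retained, the log2 fold change of GLI1 in primed cells was 0.27 with CPT (SE 0.93, 95% interval -1.55 to 2.09, unadjusted P = 0.771). In unprimed cells it was 0.69 (95% interval -1.32 to 2.69). With all libraries, a change of GLI1 by as much as 4-fold was not detectable at this depth. Con replicate 1 held 8 of the 9 Con counts. GLI1 passed the filter when any single unprimed library was left out, and also without replicate 2 or 3 of GTA+5-Aza or of CPT+GTA+5-Aza. With Con replicate 1 left out, the other Con libraries held 0 and 1 counts of GLI1. In priming without CPT its unadjusted P was then 0.0140 (adjusted p = 0.0911). With CPT in unprimed cells its log2 fold change was then 3.06 (95% interval 0.03 to 6.09), as a description. That interval lies above 0 but rests on the same 0 and 1 counts in Con. When any other unprimed library was left out instead, the 95% interval of GLI1 in this comparison included 0. ARHGAP9 on the opposite strand shares 5 exon bases with GLI1 and had at most 12 counts.

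GLI2 (ENSG00000074047, chromosome 2 from 120735623 to 120992653, plus strand), the main activator among the GLI factors, was low in every group. It had 0.736, 1.62 and 1.46 CPM in Con and 2.31, 1.43 and 3.06 CPM in CPT. In primed cells it had 2.67, 1.503 and 2.71 CPM without CPT and 2.69, 3.46 and 1.90 CPM with CPT. The Con group had the lowest mean, 1.27 ± 0.471 CPM against 2.26 ± 0.816, 2.30 ± 0.686 and 2.69 ± 0.783 CPM in CPT, GTA+5-Aza and CPT+GTA+5-Aza (SD, n = 3). The groups overlapped in each of the 4 comparisons. Every CPT+GTA+5-Aza library lay above every Con library, a pair outside these comparisons for which no share over all genes is given. The log2 fold change with CPT in unprimed cells was 0.82 (SE 0.39, 95% interval 0.02 to 1.62), as a description. With priming it was 0.84 (SE 0.39, 95% interval 0.04 to 1.64, adjusted p = 0.146). That value passed the fold threshold of 1.5 at an unadjusted P under 0.05, as did 8.44% of all tested genes, but not the adjusted threshold, and it shares the Con libraries with the value before. In the other comparisons GLI2 differed by less than the spread, with 0.23 for CPT in primed cells (adjusted p = 1.00) and 0.25 for priming with CPT (adjusted p = 0.714).

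GLI3 (ENSG00000106571, chromosome 7 from 41960949 to 42264100, minus strand), which acts mostly as the repressor of the pathway, was the 1 member that met the fold and unadjusted P thresholds for CPT in primed cells, as did 1.00% of all tested genes. It had 0.695, 0.451 and 0.677 CPM in GTA+5-Aza and 0.898, 1.65 and 1.59 CPM in CPT+GTA+5-Aza. The latter libraries all lay above the former, as in 4.42% of all tested genes. Behind these levels were 34 counts in the former group and 72 in the latter (exact Poisson 95% intervals 23.6 to 47.5 and 56.3 to 90.7). The log2 fold change was 1.17 (SE 0.55, 95% interval 0.04 to 2.31), where the unadjusted P was 0.0427 but the adjusted p was 1.00. The unadjusted P rose to 0.0560, 0.121 and 0.0612 without GTA+5-Aza replicates 1, 2 and 3, and to 0.119 and 0.101 without CPT+GTA+5-Aza replicates 2 and 3. In unprimed cells GLI3 had 1.05, 0.477 and 1.36 CPM in Con and 0.495, 0.738 and 1.20 CPM in CPT, which overlapped, and the log2 fold change was -0.24 (95% interval -1.36 to 0.87). Priming gave -0.66 without CPT and 0.76 with CPT, with adjusted p values of 0.477 and 0.383.

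**Figure D3:**
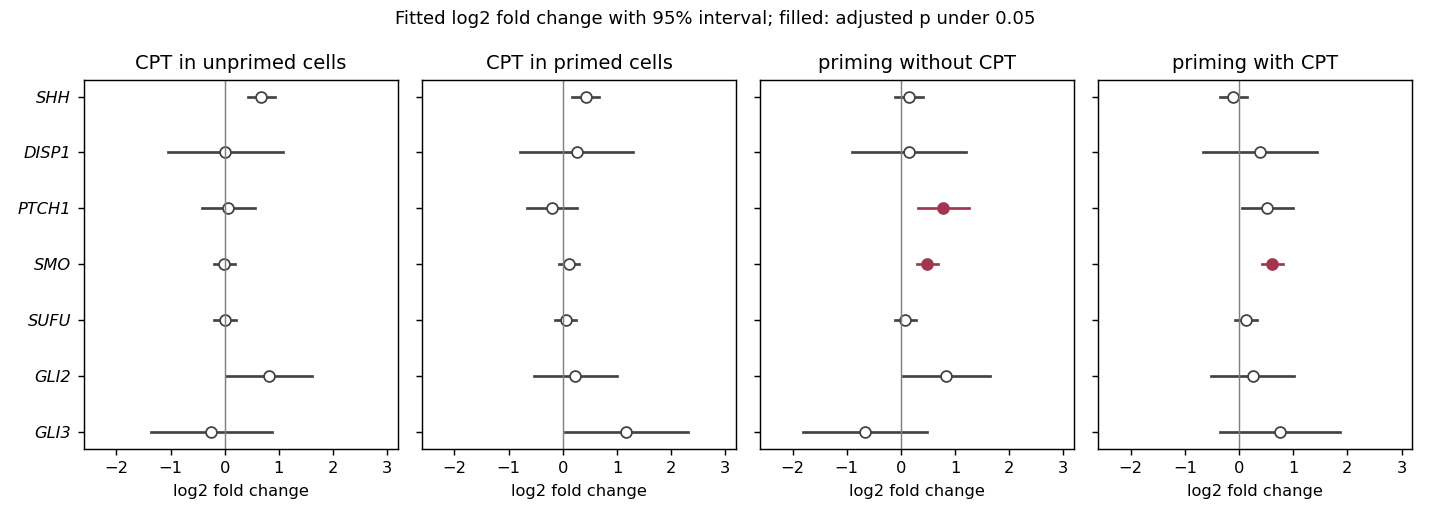
Log2 fold changes of the 7 tested members (points) with 95% intervals (lines) in the 4 comparisons, from 1 fit of the 12 libraries, filled where the adjusted p was under 0.05. With CPT in primed cells the intervals of SHH and GLI3 lie above 0 and those of the other 5 members include it, and the filled points are PTCH1 and SMO with priming. The unprimed panel is the comparison that chose the set and is a description only.

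Read together by comparison, 0 of 7 tested members had an adjusted p under 0.05 with CPT in primed cells. There 0% of all 17123 genes passed by edgeR's quasi-likelihood test, and 464 genes (2.71%) had an unadjusted P under 0.05. DESeq2 also called 0 genes there. The members with an unadjusted P under 0.05 were SHH and GLI3. In unprimed cells 0% of all genes passed the adjusted threshold by edgeR (4 genes by DESeq2), and 733 genes (4.28%) had an unadjusted P under 0.05. The fold and unadjusted P thresholds were met by 1.83% of genes, and nothing is read for the members from this comparison. In priming without CPT 2 of 7 members rose (PTCH1 and SMO) and in priming with CPT 1 of 7 rose (SMO), and no member fell. Over all tested genes, 9.95% were called higher and 7.53% lower in priming without CPT, and 9.57% and 7.39% in priming with CPT. The fold and unadjusted P thresholds picked PTCH1 and GLI2 in priming without CPT, where 8.44% of all genes met them. In priming with CPT they picked SMO, where 8.67% of all genes met them. GLI2 missed them without Con replicate 1 or GTA+5-Aza replicates 1 or 3 (unadjusted P of 0.176, 0.115 and 0.119), and SMO fell short of the fold without CPT replicate 3 or CPT+GTA+5-Aza replicate 3 (log2 fold changes of 0.49 and 0.57). Both priming comparisons share libraries with those of CPT, so their values are not independent of one another.

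The rest of the pathway was examined through lists by role. The 45 pathway genes that are not members included 32 tested genes. With CPT in primed cells 0 of the 32 were called by edgeR, 0 had an unadjusted P under 0.05, and DESeq2 also called 0. Their median log2 fold change was -0.01 there, with 15 above 0 and 17 below, beside a median of 0.00 over all tested genes. In unprimed cells the median was -0.02, with 14 above 0 and 18 below.

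The GLI targets, the genes that would carry a pathway response, numbered 18, of which 10 were tested, among them PTCH1, BCL2, CCND1, FOXM1 and SFRP1. With CPT in unprimed cells 3 of the 10 lay above 0 and 7 below, with a median log2 fold change of -0.03 and values from -0.65 to 0.31. With CPT in primed cells 6 lay above 0 and 4 below, with a median of 0.04 and values from -0.19 to 0.33, and 0 of 10 passed either rule by edgeR or had an unadjusted P under 0.05. In 0 of the 10 did the libraries with CPT stand apart from those without it, in unprimed or primed cells, beside 3.81% of all tested genes higher and 4.21% lower in unprimed cells and 4.42% higher and 4.74% lower in primed cells, so a count of 0 is near the background. The targets MYCN and NKX2-2 and the ciliary genes EVC and EVC2 were at 0 counts in every library.

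**Figure D4:**
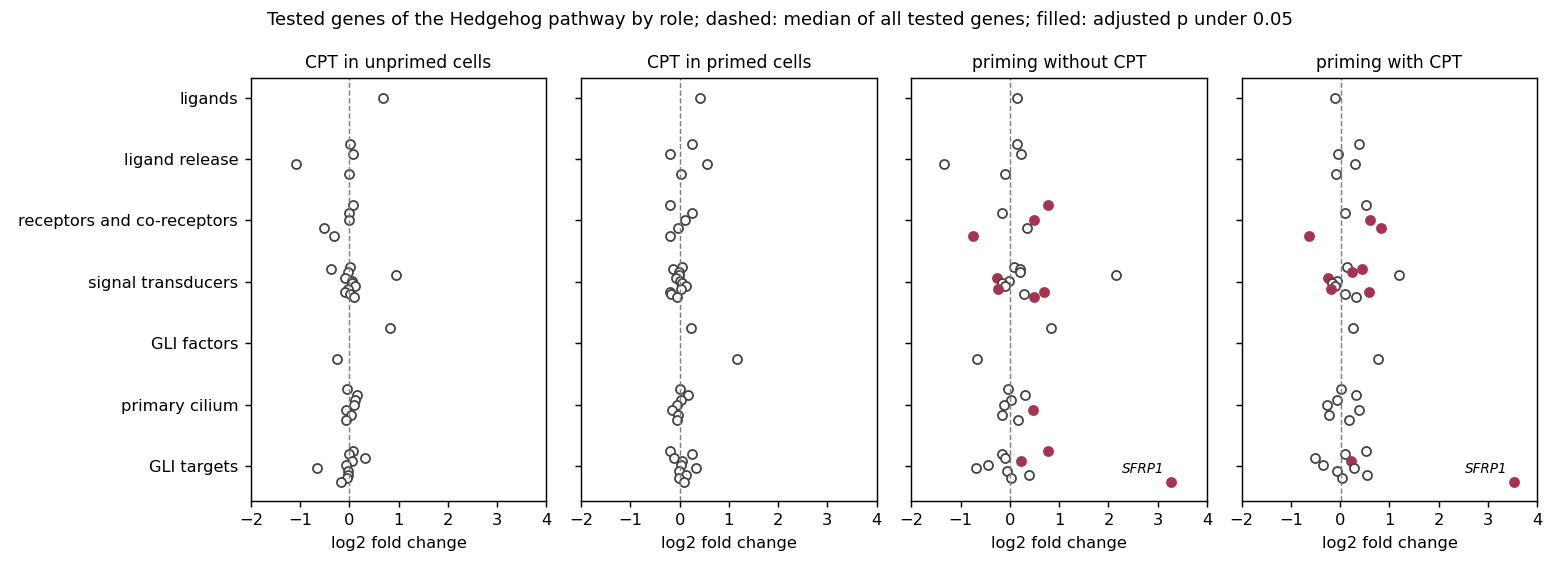
Log2 fold changes of the tested pathway genes (points) by role in the 4 comparisons, with members included, filled at an adjusted p under 0.05 and with a dashed line at the median of all tested genes. The CPT panels hold no filled point, and SFRP1 lies farthest to the right in both priming panels at 3.28 and 3.53.

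Among the other pathway genes, calls with priming went in both directions. In priming without CPT 5 of the 32 rose and 3 fell, and in priming with CPT 6 rose and 3 fell, beside medians of 0.00 and 0.07 (0.01 over all tested genes in both). These counts stand beside 9.95% of all tested genes higher and 7.53% lower in priming without CPT, and 9.57% and 7.39% in priming with CPT. SFRP1, a secreted antagonist of WNT signalling that is listed among the GLI targets, changed most. It went from 1.42, 0.905 and 0.729 CPM in Con to 11.2, 9.42 and 8.92 CPM in GTA+5-Aza, a log2 fold change of 3.28 (SE 0.25, adjusted p = 1.15e-09). For priming with CPT the log2 fold change of SFRP1 was 3.53 (SE 0.26, adjusted p = 4.63e-10). CCND1, the cell cycle gene encoding cyclin D1, rose by a small amount, with log2 fold changes of 0.21 and 0.22 for priming without and with CPT (adjusted p = 0.00658 and 0.00654). In priming without CPT the GLI targets that rose were PTCH1, SFRP1 and CCND1, and in priming with CPT they were SFRP1 and CCND1. No GLI target passed the adjusted threshold downward in either comparison. FOXF1, a forkhead factor, had a log2 fold change of -0.45 in priming without CPT (adjusted p = 0.116). FOXM1, a forkhead factor of the cell cycle, had -0.07 (adjusted p = 0.391). For both, every GTA+5-Aza library lay below every Con library, as in 16.0% of all tested genes. The median of the 10 targets was -0.02 without CPT and 0.16 with CPT.

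Among receptors and transducers the directions were mixed. GAS1, a co-receptor that aids ligand binding, fell from 14.5, 17.1 and 12.7 CPM in Con to 8.50, 8.16 and 9.65 CPM in GTA+5-Aza, with no overlap (as in 16.0% of all tested genes downward). Its log2 fold change was -0.75 (SE 0.18, adjusted p = 0.00342), and for priming with CPT it was -0.63 (adjusted p = 0.0153). CDON, another co-receptor, had a log2 fold change of 0.83 for priming with CPT (adjusted p = 0.0436), with overlapping libraries, and of 0.35 for priming without CPT (adjusted p = 0.438). GPR161, a ciliary receptor that restrains the pathway through protein kinase A, rose with priming by 0.68 and 0.58 on the log2 scale (adjusted p = 0.0011 and 0.00554). GSK3B and CUL3, which take part in the phosphorylation and breakdown of GLI proteins, fell by 0.26 and 0.25 on the log2 scale in priming without CPT (adjusted p = 0.0120 and 0.00672). In priming with CPT they fell by 0.25 and 0.19 (adjusted p = 0.0156 and 0.0341). ULK3, a kinase that acts on GLI proteins, and DYNC2H1, a motor of transport within the cilium, rose in priming without CPT by 0.48 and 0.47 on the log2 scale (adjusted p = 0.00795 and 0.0205). KIF7, a ciliary regulator of the GLI factors, and PRKACA, a catalytic subunit of protein kinase A, rose in priming with CPT by 0.45 and 0.23 on the log2 scale (adjusted p = 0.0142 and 0.0489). In priming without CPT their log2 fold changes were 0.21 and 0.21 (adjusted p = 0.265 and 0.0704). KIF7 in CPT, the baseline of the former comparison, lay below Con in every library, with a log2 fold change of -0.37 (95% interval -0.63 to -0.11, as a description). Of the 32 genes, 2 lay below in this way, KIF7 among them, and 1 lay above. Over all tested genes 4.21% lay below and 3.81% above.

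Several of these calls were lost under an alternative. Without Con replicate 3, the adjusted p was 0.0785 for GSK3B, 0.0848 for ULK3 and 0.0509 for DYNC2H1 in priming without CPT. DYNC2H1 also lost its call without Con replicate 2 or GTA+5-Aza replicate 2 (adjusted p = 0.105 and 0.132). In priming with CPT, 6 genes lost their calls under 1 or more alternatives: PRKACA in 11 of the 18, CDON in 8, CUL3 in 7, GSK3B in 3, GAS1 in 2 and KIF7 in 1. PRKACA lost its call without any of 9 libraries, that is all but CPT replicate 2 and GTA+5-Aza replicates 2 and 3 (adjusted p = 0.0549 to 0.156), and also with DESeq2's size factors (0.0524) or the replicate number as a block (0.0642). CDON lost it without Con replicate 3, CPT replicates 1 or 2, or CPT+GTA+5-Aza replicates 1 or 2 (adjusted p = 0.0525 to 0.156), and also with that block, in a fit of both groups alone or by DESeq2 (0.0576 to 0.0583). CUL3 lost it without CPT replicates 1 or 3 or CPT+GTA+5-Aza replicates 2 or 3 (adjusted p = 0.0584 to 0.180), and also when scaled by the total count (0.0990), when low counts were kept (0.0560) or in a fit of both groups alone (0.0757). GSK3B lost it without CPT replicate 3 or CPT+GTA+5-Aza replicates 2 or 3 (adjusted p = 0.0543 to 0.0935), GAS1 without replicate 1 of CPT or of CPT+GTA+5-Aza (adjusted p = 0.137 and 0.102) and KIF7 without CPT+GTA+5-Aza replicate 2 (adjusted p = 0.0612). SFRP1, CCND1 and GPR161 kept their calls in both priming comparisons under all 18.

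Some fibroblast and epithelial markers rose with priming beside the rises of SMO, PTCH1 and SFRP1. Over all tested genes, 9.95% were called higher in priming without CPT and 9.57% in priming with CPT. Of the 4 tested fibroblast and stellate genes, 3 rose in priming without CPT and 2 in priming with CPT, led by COL1A1 with log2 fold changes of 3.62 and 3.46 (adjusted p = 4.25e-04 and 9.34e-04). COL1A1 was near the floor, with means of 0.135 CPM in Con and 0.126 in CPT (8 and 7 summed counts). Its means were 1.70 CPM in GTA+5-Aza and 1.44 in CPT+GTA+5-Aza. The log2 fold changes of the higher collagens COL1A2 and COL3A1 were 0.15 and 0.34 in priming without CPT, and 0.19 and 0.20 in priming with CPT. The summed list had 879.7 to 932.4 CPM in Con, 780.1 to 848.3 in CPT, 989 to 1070 in GTA+5-Aza and 916.6 to 943.6 in CPT+GTA+5-Aza. Without the collagens it had 0.524 to 0.841, 0 to 0.546, 0.551 to 0.960 and 0.397 to 1.48 CPM in the same order, and the defining markers LUM and FAP were at 0. Of the 4 tested epithelial markers 2 rose in priming without CPT, KRT19 and KRT7, and 2 in priming with CPT, KRT18 and KRT19. The part of these shifts in the members' values was not tested.

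The receptor of the agent was low. VDR, the Vitamin D receptor, had 1.10 to 2.65 CPM over the 12 libraries. With priming its log2 fold change was 0.53 without CPT (95% interval -0.22 to 1.27, adjusted p = 0.361). With CPT present that value was 0.18 (95% interval -0.60 to 0.96, adjusted p = 0.805). Every library with CPT lay below every library without it in unprimed and in primed cells, as in 4.21% and 4.74% of all tested genes. The log2 fold change of VDR with CPT in primed cells was -0.64 (SE 0.37, 95% interval -1.40 to 0.11, adjusted p = 1.00), opposite in sign to that of SHH. CYP24A1, the enzyme that degrades Vitamin D and a standard target of its receptor, had 0 counts in 11 libraries and 2 counts in CPT+GTA+5-Aza replicate 1. A target gene that reports receptor activity was therefore not detectable at this depth in CPT, where a count of 0 allows 0.165 CPM in the smallest of the 3 libraries.

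The 5 genes whose profile lay closest to that of SHH were taken by the root mean square difference of centred log2 CPM over the 12 libraries. They were ADPGK-AS1 (0.156), ENSG00000268205 (0.167), IFT43 (0.184), LIPT1 (0.189) and WASH7P (0.196), against a median of 0.379 over all tested genes. IFT43 encodes a subunit of the ciliary transport machinery, LIPT1 a lipoyltransferase of the mitochondrion, and ADPGK-AS1 and WASH7P are a noncoding and a pseudogene locus. LIPT1 had 2.81 ± 0.0468 CPM in Con, 4.55 ± 0.197 CPM in CPT, 3.03 ± 0.163 CPM in GTA+5-Aza and 4.03 ± 0.967 CPM in CPT+GTA+5-Aza (SD, n = 3). These 5 genes were taken from the 17123 tested genes, so the absence of the other members is not read as a result. GLI1 and HHIP did not pass the filter and could not appear. Reads of WASH7P may be shared with near-identical copies, and those of ADPGK-AS1 with the gene on the opposite strand.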

How the data were processed

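RNA-seq was performed on 12 MiaPaca2 libraries, 3 in each of 4 groups. The authors used trim galore for the paired-end reads, hisat2 2.2.1 for alignment to GRCh38 (per the submitters' processing notes) and HTSeq for counting. The values deposited for each gene are raw counts, with no normalization. The annotation release and strand setting of the counting are not given in the sources used here. Of the 63677 identifiers, 52181 are in GENCODE v44 (99.047% of the counts), which gave symbols, coordinates and exon lengths.

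Groups and replicate numbers came from the sample labels. Tests were run in R 4.3.3, using edgeR 4.0.16 (filterByExpr, TMM, glmQLFit and glmQLFTest, 12 libraries in 1 fit, Benjamini-Hochberg adjustment over 17123 genes) and, as an alternative, DESeq2 1.42.0. Calls were an adjusted p under 0.05, or a fold change above 1.5 with an unadjusted P under 0.05. The latter follows the fold and P of the paper's methods, which do not say whether P was adjusted or whether the fold itself was tested. CPM and RPKM used TMM-scaled library sizes. Replicate pairs of a group differed by 3.93 to 17.5 chi-square units per degree of freedom, more than counting error alone gives. This value cannot tell separate cultures from separate preparations of the same culture.

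Alternatives were 2 other scalings, no filter on low counts, the replicate number as a block, only the 2 groups compared in the fit, DESeq2, and leaving out each library. The members, gene lists, tests and the named genes were chosen with earlier results of these data known. Named genes were the 9 members, list genes with an adjusted p under 0.05 in a tested comparison, IHH, DHH, VDR and CYP24A1, and the 5 genes nearest to SHH; 1 further gene of this rule is not reported here. Other genes and markers named beside them were chosen after their values were seen. Promoter sequences are from RefSeq.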

Additional observations from a re-analysis of the deposited data

How the results depend on the processing

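The low counts of GLI1, GLI2, GLI3, DISP1 and HHIP and the 3 libraries per group limit these results. Over 18 alternatives, SHH with CPT in primed cells kept a log2 fold change of 0.38 to 0.46 and an adjusted p of 0.866 to 1.00. With each library left out in turn, the number of members higher by fold change and unadjusted P ranged from 0 to 1 for CPT in primed cells (1 with all libraries), from 1 to 2 for priming without CPT (2 with all) and from 0 to 2 for priming with CPT (1 with all). The number at an adjusted p under 0.05 ranged from 1 to 2 for priming without CPT and from 1 to 2 for priming with CPT. PTCH1 alone moved the adjusted counts. The counts by fold change and unadjusted P moved with GLI3 for CPT in primed cells, with GLI2 for priming without CPT, and with PTCH1 and SMO for priming with CPT. Without Con replicate 1, GLI1 took the place of GLI2 in priming without CPT (unadjusted P of 0.0140 against 0.176). GLI1 also passed the filter in other fits with a library left out. The difference of the SHH response between primed and unprimed cells ranged from -0.38 without Con replicate 2 to -0.12 without Con replicate 1. Leaving out a library also turned the sign of GLI2 with CPT in primed cells (-1.12e-04 to 0.43), of DISP1 in priming without CPT (-0.074 to 0.69, with -0.062 and -0.036 when Con replicate 2 or GTA+5-Aza replicate 2 was the library left out) and of GLI2 in priming with CPT (-0.0020 to 0.53), none of which passed the test. The 28 member values had 504 alternative values, 18 for each. Of these 504, 13 had the opposite sign with CPT in unprimed cells and 5 had it in the tested comparisons. The causes were not tested.

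The deviations of same-numbered libraries from their group means correlated at -0.0844 to 0.117. For CPT in unprimed cells, 4 of 6 libraries correlated best with the library of their own number. This held for 0 of 6 for CPT in primed cells, 0 of 6 in priming without CPT and 2 of 6 in priming with CPT. Deviations from means of 3 libraries cannot decide whether the numbers pair the samples. With the replicate block, the calls over all genes went from 2993 to 2888 for priming without CPT and from 2904 to 2767 for priming with CPT, no member changed its call, and the SHH difference was -0.26. In priming with CPT, CDON (adjusted p = 0.0581) and PRKACA (adjusted p = 0.0642) lost their calls with the block. For CPT in primed cells, edgeR called 4 genes when low counts were not filtered and 2 when the fit held the compared groups alone, none of them a member.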
